A study of Mus musculus with 2 samples.

Results

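The circadian clock genes described here are 10 mouse genes whose products form the daily oscillator or act directly on it. They were taken from the gene tables by symbol, through the Ensembl identifier without its version, and all 10 were found among the 43346 genes listed. They are the activators Clock, Arntl and Npas2, the repressors Per1, Per2, Per3, Cry1 and Cry2, the output factor Dbp and the casein kinase Csnk1e. The samples were E16.5 forebrain, that is, forebrain dissected from B6NCrl mouse embryos at 16.5 days of gestation, with male and female embryos pooled and reported as healthy. The 2 libraries were biological replicates of this single group, each from a separate pool, and replicate 2 came from 41 embryos. Total RNA above 200 nt was sequenced from 10 ng, with spike-in RNAs added. The samples used here hold no second age, tissue or treatment, so the levels are a description and no test between conditions could be made. The hour of collection is not given in the sources used here, so no position in a daily cycle can be attached to any value.

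In the mammalian clock, CLOCK or its relative NPAS2 pairs with ARNTL (also called BMAL1) and binds E-box sequences in the Per and Cry genes. The PER and CRY proteins accumulate, enter the nucleus with casein kinase 1 and repress their own activators, which closes a loop of about a day in adult tissue. A second loop of REV-ERB and ROR nuclear receptors acts on Arntl, and DBP drives output genes through D-box sequences. In adult mice the suprachiasmatic nucleus of the hypothalamus holds the master clock, while other brain regions carry their own oscillators.

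Regional markers fitted the tissue label. Each of 8 telencephalon genes examined reached 10 TPM in both libraries, and the highest was Neurod6, a factor of differentiating cortical neurons, at 439 ± 70.5 TPM. TPM is each gene's share of all transcripts after correction for length, so genes can be compared by it. Errors are the SD over the 2 libraries throughout. The gene tables held 31211128 expected counts in replicate 1 and 26957198 in replicate 2.

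All 10 clock genes reached 1 TPM in each library, as did 60.7% of 21474 protein-coding genes. At a minimum of 5 TPM, 5 of the 10 did, as did 49.0% of protein-coding genes. The levels of the 10 spanned 159-fold. Csnk1e was far above the rest at 194 ± 0.283 TPM, which was 5.34-fold the next gene. The cryptochromes followed, with Cry2 at 36.4 ± 3.45 TPM and Cry1 at 29.7 ± 2.18 TPM. Arntl reached 12.9 ± 1.36 TPM and Per1 9.75 ± 0.438 TPM. The remaining 5 genes lay near or below 5 TPM, namely Clock, Per2, Dbp, Per3 and, lowest, Npas2 at 1.22 ± 0.212 TPM. The median of the 10 was 7.39 TPM, against 21.9 TPM over the 13038 protein-coding genes detected at 1 TPM or more and 5.05 TPM over all protein-coding genes listed.

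In this order, 8 of the 9 neighbouring pairs had values that did not overlap between the genes over the 2 libraries, and Clock and Per2 could not be separated. The deposited tables also give bounds of a credibility interval for each TPM, whose level the headers do not state. By these bounds 4 steps of the order were separated in both libraries, which are Csnk1e above Cry2, Cry1 above Arntl, Per1 above Clock and Per3 above Npas2. Cry2 and Cry1 overlapped in replicate 2, Arntl and Per1 in replicate 1, and Per2 with Dbp and Dbp with Per3 in both. Per1 and Per2, which are not neighbours in the order, overlapped in replicate 2. For 9 of the 10 genes the interval of replicate 1 overlapped that of replicate 2, the exception being Cry2. The step from Per3 to Npas2 was separated for the gene levels alone. The bounds of their longest coding transcripts, Per3-201 and Npas2-201, overlapped in both libraries. They were 0.609 to 1.40 and 0.799 to 1.24 TPM in replicate 1, and 0.946 to 1.82 and 0.800 to 1.29 TPM in replicate 2.

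**Figure D1:**
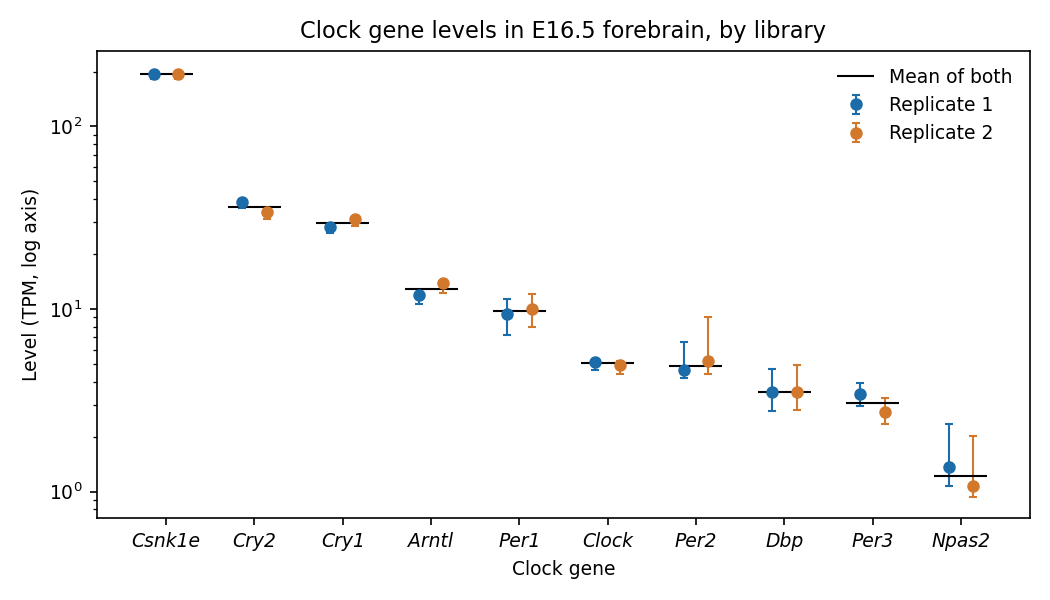
Level of each clock gene in TPM (log axis) in replicate 1 and replicate 2, with the mean of both as a black line and the deposited credibility bounds as error bars. Csnk1e stands at 194 TPM, Cry2 and Cry1 at 36.4 and 29.7 TPM, and Npas2 at 1.22 TPM has the widest bars for its level, followed in replicate 2 by Per2.

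**Figure D2:**
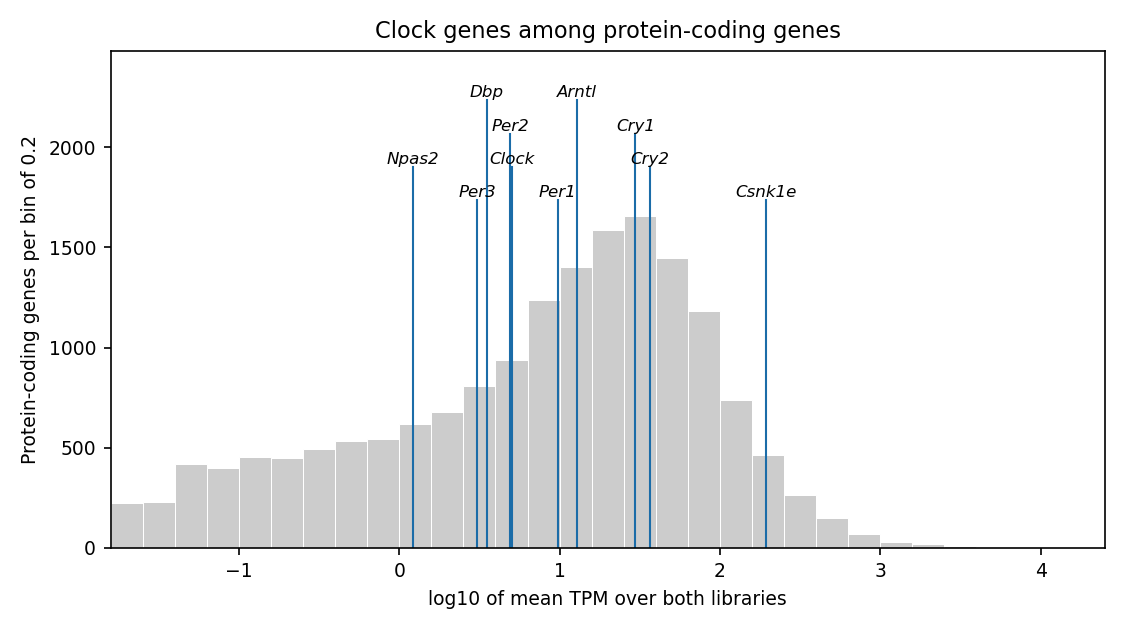
Number of protein-coding genes by mean TPM over both libraries (log10 scale, bins of 0.2), with each clock gene marked by a blue line. Genes in the lowest bin, at or near 0, are not drawn. Csnk1e lies in the upper tail, Cry1 and Cry2 in the tallest bin drawn, and the other 7 to its left.

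The activators were at low levels and unequal. Clock encodes a basic helix-loop-helix PAS protein that also acetylates histones (chromosome 5, 76209868 to 76304792, minus strand). It had 711 and 576 expected counts in replicates 1 and 2, which gave 5.13 and 4.95 TPM, and 49.97% of protein-coding genes had a lower mean. Arntl, the obligate partner of CLOCK and NPAS2 (chromosome 7, 113207465 to 113314126, plus strand), was at 11.9 and 13.8 TPM from 626 and 611 counts. Both genes have a single transcript in the deposited tables, so their counts needed no division between isoforms.

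Npas2, the paralog of Clock known for its role in the adult forebrain (chromosome 1, 39193731 to 39363236, plus strand), was at 1.37 and 1.07 TPM from 83 and 70 counts. Only 0.614% of the protein-coding genes detected at 1 TPM or more were lower. The TPM difference between the pools lay in a short transcript. In replicate 1, 2.39 counts were assigned to Npas2-203, a 484-base transcript, which then held 24.2% of the gene's TPM, and in replicate 2 it had 0 counts. The full-length Npas2-201 had 1.04 and 1.07 TPM in replicates 1 and 2, a smaller difference than that of the gene. Of the pseudogenes inside its span, Gm3617 had 5 and 3 counts and Gm20428 had 0. Clock exceeded Npas2 by a log2 ratio of 1.97 ± 0.20, or 3.92-fold, within the same libraries. Relative to Arntl, Clock had a log2 ratio of -1.33 ± 0.19 and Npas2 one of -3.30 ± 0.39. Arntl was 2.06 ± 0.330 times the summed level of both of its partners.

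The period genes, whose proteins carry the time delay of the loop, were led by Per1. Per1 (chromosome 11, 69095217 to 69109960, plus strand), a gene that also responds quickly to light and cAMP in adult brain, measured 9.44 and 10.1 TPM in replicates 1 and 2, from 549 and 467 counts. Per2 (chromosome 1, 91415982 to 91459324, minus strand), whose mutation disturbs adult rhythms, was at 4.64 and 5.17 TPM from 499 and 431 counts. Per3 (chromosome 4, 151003652 to 151044665, minus strand), which is largely dispensable for rhythms in mice, was at 3.42 and 2.73 TPM from 283 and 213 counts. Per1 was above Per2 by a log2 ratio of 0.98 ± 0.04 and above Per3 by 1.64 ± 0.29. The ratio of Per1 to Per2 depends on transcript assignment beyond its SD, and with posterior mean TPM it was 0.73. The deposited bounds of Per1 and Per2 overlapped in replicate 2 alone, at 7.995 to 12.14 and 4.38 to 9.04 TPM. Coding transcripts of at least 1000 bases summed to 6.86 and 6.75 TPM for Per1 in replicates 1 and 2. Those of Per2 were at 4.64 and 4.76 TPM. Per2 over Per3, at 0.66 ± 0.33, did not exceed 3 times its SD.

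Per1 has alternative first exons, and the libraries disagreed on which of them the reads were given to. Per1-201 and Per1-206 are both coding transcripts of 23 exons, with starts at 69098948 and 69100158. In replicate 1, Per1-201 received 356.23 counts and Per1-206 received 0. In replicate 2, Per1-201 received 0 counts and Per1-206 received 335.98. Summed, the pair held 44.0% of the gene's TPM in replicate 1 and 46.7% in replicate 2, which the gene-level value does not show. The deposited posterior means, an averaged estimate, spread the reads more evenly, with 34.7% and 14.6% on Per1-201 and 7.66% and 28.1% on Per1-206 in replicates 1 and 2. The deposited TPM bounds of both transcripts overlapped between the libraries. Those of Per1-201 were 2.03 to 4.29 and 1.96e-05 to 4.02 TPM, and those of Per1-206 were 2.77e-06 to 1.70 and 0.0433 to 4.503 TPM. The 2 Per1 start regions in the RefSeq promoter table (build GRCm38.p6, 250 bases before to 50 bases after the start, plus strand) are shown because these transcripts begin there. The upstream one is chr11:69098699-69098998 and the downstream one chr11:69099902-69100201. Capitals mark the E-box CACGTG, which was found in the upstream region alone, 166 bases before the start.
Per1 upstream start: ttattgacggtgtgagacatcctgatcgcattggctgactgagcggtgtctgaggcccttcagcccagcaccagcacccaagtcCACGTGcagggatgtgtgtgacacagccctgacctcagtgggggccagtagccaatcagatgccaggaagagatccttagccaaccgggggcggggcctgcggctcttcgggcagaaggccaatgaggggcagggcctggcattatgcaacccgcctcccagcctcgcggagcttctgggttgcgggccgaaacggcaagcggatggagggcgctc
Per1 downstream start: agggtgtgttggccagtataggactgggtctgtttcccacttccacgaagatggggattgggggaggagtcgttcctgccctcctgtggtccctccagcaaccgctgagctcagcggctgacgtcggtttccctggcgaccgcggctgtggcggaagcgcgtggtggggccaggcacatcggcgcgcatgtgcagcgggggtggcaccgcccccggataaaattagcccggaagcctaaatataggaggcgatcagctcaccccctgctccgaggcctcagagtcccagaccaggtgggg

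A further 27.3% and 32.9% of Per1 TPM in replicates 1 and 2 was assigned to Per1-204, a 496-base transcript with 19.2 and 20.7 counts. Per1-202, a coding transcript of 18 exons, starts farther upstream at 69095217 and ends at 69106458, short of the gene's end. It held 28.7% and 20.4% from 173.55 and 110.34 counts, and is included in the full-length sum below. Full-length coding transcripts of Per1, taken here as those typed protein-coding and at least 1000 bases long, summed to 6.86 and 6.75 TPM in replicates 1 and 2. They held 96.5% and 95.6% of its counts, so most of the gap to the gene-level TPM came from a small part of the reads.

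Much of Per3 was assigned to non-coding forms. Its coding transcript Per3-201 held 30.6% of the gene's TPM in replicate 1 and 54.6% in replicate 2, at 1.05 and 1.49 TPM. The rest went chiefly to Per3-204, a processed transcript from the 3' part of the gene with 42.1% and 30.3%, and Per3-203, a predicted target of nonsense-mediated decay with 19.2% and 11.6%. The assigned value of the coding transcript was thus lower in replicate 1 than in replicate 2 while that of the gene as a whole was higher. The deposited bounds of Per3-201 overlapped between the libraries, at 0.609 to 1.40 and 0.946 to 1.82 TPM. Those of Per3-204 overlapped too, at 0.900 to 1.93 and 0.327 to 1.40 TPM. Per3 lies inside the span of Camta1 on the same strand, and Camta1 was at 70.5 and 74.8 TPM. The part of this overlap in the counts of Per3 was not tested. In Per2, by contrast, Per2-201 held 100% and 92.1% of TPM, and the 231-base Per2-202 took the remainder in replicate 2 from 0.85 counts.

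The promoter of Per3 (RefSeq table, GRCm38.p6, chr4:151044616-151044915, minus strand) is shown for its D-box TTATGTAA, bound by DBP and its relatives. No other listed promoter of these genes held it, but Per2 had no promoter listed and was not searched. The Per3 promoter held the element at 2 places, 205 and 158 bases before the start, in capitals.
Per3: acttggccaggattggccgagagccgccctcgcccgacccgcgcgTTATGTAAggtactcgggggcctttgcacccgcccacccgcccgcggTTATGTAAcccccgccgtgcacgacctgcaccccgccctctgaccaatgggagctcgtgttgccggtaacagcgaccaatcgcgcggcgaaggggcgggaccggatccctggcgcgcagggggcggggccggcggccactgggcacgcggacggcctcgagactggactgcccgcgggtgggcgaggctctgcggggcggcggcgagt

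The cryptochromes, the strongest repressors of CLOCK and ARNTL, were the most abundant of the loop's repressor genes. Cry1 (chromosome 10, 85131700 to 85185064, minus strand), whose loss shortens the adult period, was at 28.2 and 31.3 TPM in replicates 1 and 2, from 1542 and 1437 counts on a single transcript. Cry2 (chromosome 2, 92403646 to 92434043, minus strand) was at 38.8 and 33.9 TPM from 2433 and 1828 counts. Cry1 over Cry2 had log2 ratios of -0.46 and -0.12, below 0 in both libraries but with a mean of -0.29 ± 0.24 that did not exceed 3 SD. The full-length coding transcripts of Cry2 summed to 32.7 and 29.6 TPM, so in replicate 2 they were below the 31.3 TPM of Cry1. A processed transcript, Cry2-203, took 12% and 8.28% of Cry2. The antisense gene D930015M05Rik, which overlaps Cry2, was at 0.32 and 0.66 TPM.

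Both cryptochrome promoters (RefSeq table, GRCm38.p6, minus strand) are shown because they held an E-box or its close variant CACGTT. Cry1 (chr10:85185005-85185304) held CACGTG 60 bases and CACGTT, read on the opposite strand, 79 bases before the start. Cry2 (chr2:92434020-92434319) held CACGTT on the opposite strand 166 bases before the start. Capitals mark these letters.
Cry1: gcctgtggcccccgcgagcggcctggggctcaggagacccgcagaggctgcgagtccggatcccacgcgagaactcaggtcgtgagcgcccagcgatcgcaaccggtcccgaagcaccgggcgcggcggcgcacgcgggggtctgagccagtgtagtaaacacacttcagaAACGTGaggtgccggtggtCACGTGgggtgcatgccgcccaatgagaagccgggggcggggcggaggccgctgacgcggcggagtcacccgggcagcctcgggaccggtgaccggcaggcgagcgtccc
Cry2: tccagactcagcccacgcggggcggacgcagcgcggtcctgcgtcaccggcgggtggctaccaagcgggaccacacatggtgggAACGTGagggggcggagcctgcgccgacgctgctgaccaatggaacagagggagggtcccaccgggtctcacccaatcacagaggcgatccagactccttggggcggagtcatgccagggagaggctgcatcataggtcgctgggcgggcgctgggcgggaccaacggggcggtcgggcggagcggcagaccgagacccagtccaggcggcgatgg

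Dbp, a PAR bZIP factor whose message in adult tissues swings widely over the day (chromosome 7, 45705088 to 45710203, plus strand), was low. It measured 3.51 and 3.52 TPM in replicates 1 and 2, from 74.2 and 65.6 counts. The full-length Dbp-201 had 41.9 and 41.2 of these counts and 1.32 and 1.55 TPM. The largest share, 47.8% and 52.0%, was assigned to ENSMUST00000155439, an 815-base transcript listed in the tables but absent from GENCODE M21. The last 737 bases of Dbp overlap Sphk2, a lipid kinase gene on the other strand at 25.9 and 25.4 TPM. Whether the counting used strand is not given in the sources used here, so reads from the 2 genes may not be separable there. Related factors that bind the D-box had a higher mean TPM. Hlf was at 4.75 ± 0.339 TPM. Tef was at 27.7 ± 0.742 TPM and Nfil3, a repressor at the same element, at 52.9 ± 5.65 TPM. Dbp lay below Tef by a log2 ratio of -2.94 ± 0.04, below Nfil3 by -3.87 ± 0.15 and below Hlf by -0.42 ± 0.10. These SDs do not include the counting error of Dbp. The deposited bounds of Dbp and Hlf overlapped in both libraries, so these 2 genes were not separated. They were 2.76 to 4.70 and 3.81 to 7.70 TPM in replicate 1, and 2.81 to 4.94 and 4.61 to 8.08 TPM in replicate 2.

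Csnk1e, the kinase that phosphorylates PER proteins and marks them for turnover (chromosome 15, 79417856 to 79455566, minus strand), stood above 96.4% of protein-coding genes. It measured 194.2 and 194.6 TPM in replicates 1 and 2, from 6231 and 5189 counts. Its 11 listed transcripts were led by Csnk1e-202 at 49.6 ± 1.48% and Csnk1e-201 at 31.4 ± 0.714%, and these led in both pools, while several minor transcripts changed places. Full-length coding forms made up 85.9% and 86.5% of its TPM. Its paralog Csnk1d was at 124 ± 3.60 TPM, and Csnk1d over Csnk1e had a log2 ratio of -0.65 ± 0.04. The kinase is also known to act on proteins outside the clock. Its antisense gene Gm16059 was at 1.07 and 0.52 TPM.

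**Figure D3:**
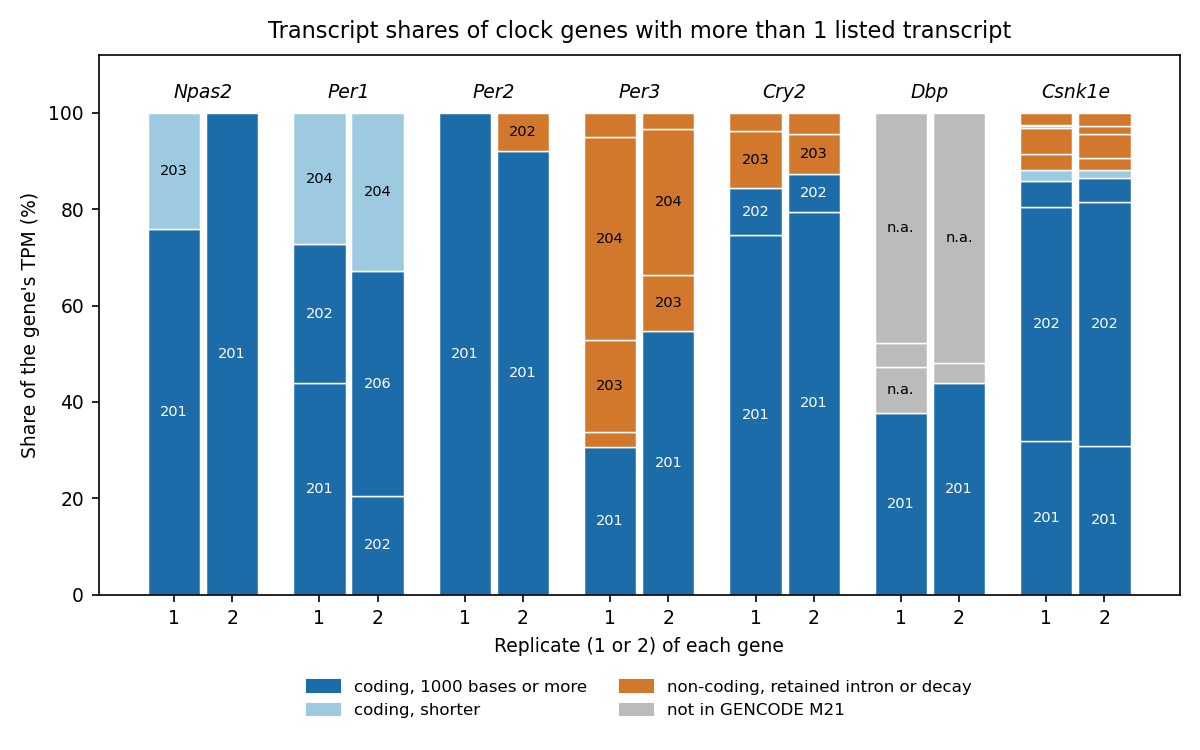
Share of each gene's TPM (percent) assigned to each listed transcript in replicates 1 and 2, for the 7 clock genes with more than 1 transcript. Numbers are the GENCODE transcript suffix, n.a. marks transcripts not in GENCODE M21, and colours give the transcript class. Per1 changes its leading transcript between 201 and 206, and full-length coding forms hold at most 54.6% of Per3 and 44.0% of Dbp in either library.

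Summed by role, repressor messages outweighed activator messages through the cryptochromes. Clock, Npas2 and Arntl together held 19.1 ± 1.03 TPM and the 3 period genes 17.7 ± 0.325 TPM. Cry1 and Cry2 together held 66.1 ± 1.27 TPM. The cryptochrome sum was 3.73 ± 0.140 times the period sum and 3.47 ± 0.252 times the activator sum, whereas the period sum was 0.928 ± 0.0328 of the activator sum. These are ratios of RNA levels within a library, at an unknown hour and over all cells of the tissue. They use gene-level TPM, which includes short and non-coding transcripts. Over full-length coding transcripts alone, Per1 fell from 9.75 to 6.8 TPM, Per3 from 3.08 to 1.27 TPM and Cry2 from 36.4 to 31.2 TPM. Clock, Arntl and Cry1 did not change. The ratios that hold the period sum therefore depend on transcript assignment beyond the SD given, and they were not computed over full-length coding transcripts.

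The RefSeq promoters covered 9 of the 10 genes, all but Per2, with 16 start regions in all. Each region was searched on both strands for 6 elements, and no matches overlapped. The E-box CACGTG stood in 2 of the 16 regions, in Per1 and Cry1, against 7.15% of all 32851 promoters. CACGTT stood in 2, in Cry1 and Cry2, against 4.68%. The D-box TTATGTAA stood in 1, in Per3, against 0.938%, and its form TTACGTAA in 0, against 0.119%. AGGTCA, the core of the element bound by REV-ERB and ROR, stood in 3, in Arntl, Clock and Per1, against 16.3%. The cAMP response element TGACGTCA stood in 0, against 1.79%. The regions of a gene can overlap each other, and a match of letters is a description, not a binding site. The median GC content of the 16 regions was 71.3%, against 52.7% over all promoters.

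The wider clock machinery was largely present. Of 27 further pathway genes 26 reached 1 TPM in each library, as did 60.7% of protein-coding genes. The median over the 27 was 24.6 TPM. Medians of the 6 lists that make them up ran from 4.11 TPM for the ARNTL partner and E-box repressors to 132 TPM for the kinases. Among the nuclear receptors of the second loop, Rorb was highest at 17.4 ± 1.41 TPM. Nr1d2 at 5.33 and 7.62 TPM and Rora at 6.54 and 5.88 TPM in replicates 1 and 2 changed order between the libraries. Nr1d1, which encodes REV-ERB alpha, was at 3.26 ± 0.0707 TPM. Nr1d1, itself an E-box target in adult tissue, lay below Arntl by a log2 ratio of -1.94 ± 0.18, and Nr1d1 over Nr1d2 had -0.95 ± 0.39, which did not exceed 3 SD. Rora over Rorb had -1.47 ± 0.22.

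The E-box repressor genes and the second ARNTL were mostly low. Arntl2 was at 2.78 and 2.15 TPM, 2.34 ± 0.40 below Arntl on the log2 scale. Bhlhe40 and Bhlhe41, which encode DEC1 and DEC2, were at 6 ± 0.891 and 2.98 ± 1.22 TPM, and their log2 ratio of 1.04 ± 0.80 did not exceed 3 SD. Ciart was at 4.11 ± 1.02 TPM, and Cipc, an inhibitor of CLOCK, at 52.1 ± 0.134 TPM. The kinases were all above 100 TPM, from Csnk2a1 at 109 ± 7.11 TPM through Gsk3b at 132 ± 4.09 TPM and Csnk1a1 at 247 ± 9.81 TPM to Csnk2b at 267 ± 4.596 TPM. Among the ligase genes that control PER and CRY turnover, Fbxw11 was at 110 ± 8.61 TPM, Btrc at 24.6 ± 0.750 TPM and Fbxl21 at 1.97 ± 0.651 TPM. The protease gene Usp2 was at 11.4 TPM in each library. Nono at 394 ± 19.9 TPM, Tipin at 77.4 ± 7.47 TPM, Wdr5 at 45.7 ± 3.59 TPM and Timeless at 25.3 ± 1.55 TPM have known functions outside the clock, Timeless and Tipin in DNA replication.

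Peptide genes of the suprachiasmatic nucleus ranged widely, and a pair of them were near the limit of counting. Vip, the coupling peptide of that nucleus, had 1 count in each library, and Nms, another of its peptides, had 3 in each. The transcription factors of the nucleus were low as well, with Lhx1 at 2.42 ± 0.156 TPM and Six6 at 0.53 and 0.08 TPM in replicates 1 and 2. Other peptide genes of the list were higher than Vip and Nms, with Grp at 4.11 ± 0.997 TPM from 51 and 60 counts and Prok2 at 2.42 ± 0.785 TPM from 75 and 39 counts. Of the receptor and signalling genes, Prokr2 at 5.37 ± 0.297 TPM, Vipr2 at 0.68 ± 0.113 TPM and Rgs16, a regulator of G-protein signalling, at 28.2 ± 0.438 TPM. Avp, expressed in other hypothalamic nuclei too, had 19.6 and 3.98 TPM in replicates 1 and 2, from 175.53 and 30 counts. In pooled tissue, fewer cells of a type and less RNA per cell cannot be told apart.

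No clock gene met the rule for a difference between the 2 pools. Of the 10, 0 were at least 2-fold apart with a counting interval that excluded equality, where 1.37% of the 13929 genes with at least 50 mean counts were, 1.01% higher in replicate 1 and 0.366% higher in replicate 2. At 1.5-fold the count was also 0, against 6.59% of genes. All 10 had enough counts to be compared. Log2 ratios, given as replicate 1 over replicate 2 of scaled counts, ran from -0.20 for Arntl to 0.18 for Cry2, with a median of 0.004 and a median size of 0.07. Over all genes compared the median size was 0.14. The 95% counting interval excluded equality for 3 of 10, against 50.5% of all genes compared. These were Cry2 (0.18, interval 0.09 to 0.27), Cry1 (-0.13, -0.24 to -0.03) and Arntl (-0.20, -0.36 to -0.04). Intervals were widest for the genes of lowest count, Dbp at -0.57 to 0.43 and Npas2 at -0.47 to 0.49, so smaller differences there were not detectable at this depth. The 2 pools were 1 library each, so no p-value was computed, and whether they were collected at the same hour is not given in the sources used here.

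**Figure D4:**
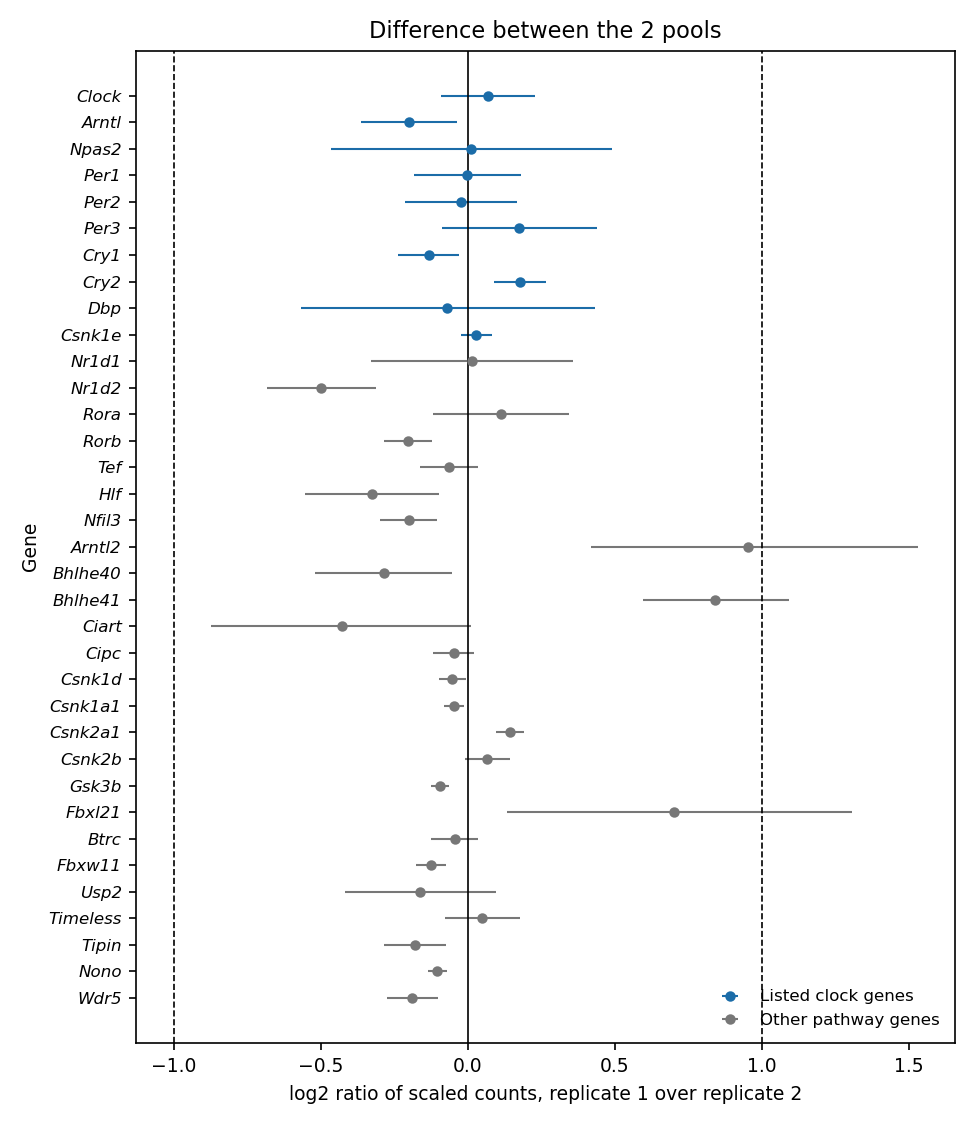
Log2 ratio of scaled counts, replicate 1 over replicate 2, for the 10 clock genes (blue) and further pathway genes with at least 50 mean counts (grey), with 95% counting intervals and dashed lines at 2-fold. All 10 clock genes lie between -0.20 and 0.18, and Arntl2 and Bhlhe41 lie furthest right.

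Of the 26 further pathway genes compared, 0 passed the 2-fold rule as well, where 1.37% of all genes compared did. The ratios farthest from 0 were Arntl2 at 0.95 (0.42 to 1.53), Bhlhe41 at 0.84 (0.60 to 1.09), Fbxl21 at 0.70 (0.13 to 1.31) and Nr1d2 at -0.50 (-0.68 to -0.31). Other markers separated the pools more. All 6 hypothalamic genes examined had a higher TPM in replicate 1 than in replicate 2. Trh had 7.59 and 3.21 TPM, Crh 3.84 and 0.68 TPM, Otp 2.17 and 0.52 TPM and Sim1 1.14 and 0.16 TPM in replicates 1 and 2, and these 4 met the 2-fold rule, as did Avp. Of these, Sim1, Otp, Crh and Avp reach a mean of 50 counts only through replicate 1, where they are high, so how many met the rule is partly set by the count minimum. Of 4 meningeal fibroblast genes 2 passed as higher in replicate 2, namely Col1a1 and Col1a2, with a list median of -1.22. Ratios were below 0 for each of 6 dividing progenitor genes, of which Fabp7 was highest at 1314 ± 201 TPM (list median -0.34). They were above 0 for 5 of 6 young neuron genes, of which Tubb3 was highest at 1609 ± 83.7 TPM (list median 0.23). Scaling to the spike-in RNAs in place of the genes shifted ratios by -0.55, which puts those of all 10 clock genes and of the young neuron genes below 0, so each ratio here is relative to the other genes of its library. The part of the marker differences in the values of the clock genes was not tested.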

How the data were processed

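Total RNA libraries from 2 pools of E16.5 mouse forebrain were analysed as 1 group. The assembly was mm10 and the annotation M4, and the tables derive from transcriptome alignments, per the notes deposited with each sample. Which aligner and quantifier made them is not given in the sources used here. Expected counts per gene and per transcript were deposited by the authors without normalization, per the file headers. TPM values were deposited by the authors and sum to a fixed total over all listed features, spike-ins included (5.93% of TPM in replicate 1 and 4.10% in replicate 2). FPKM values and each transcript's percent of its gene were also deposited, per the file headers.

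Gene names, classes and positions were looked up in GENCODE M21 on GRCm38, the assembly of mm10, where 42462 of 43346 genes matched. Expected counts were rounded to whole numbers and scaled by the trimmed mean method (TMM) of edgeR 4.0.16 in R 4.3.3. Ratios used a prior count of 0.5 and exact 95% Clopper-Pearson intervals, which cover counting error only and not variation between pools. Even for counting error they may be too narrow, since amplified reads are not independent molecules. A gene was called apart at a mean of 50 counts, 2-fold and an interval excluding equality. Pair ratios used log2(TPM + 0.1) and were set against 3 SD. An SD from 2 libraries is itself imprecise, so passing this rule is a description and not a test. Other steps used Python 3.11.15, pandas 2.3.3 and scipy 1.17.1. Promoters came from RefSeq (GRCm38.p6). Alternatives covered the TPM minimum, pseudocount, FPKM, posterior means, scaling with DESeq2 1.42.0, spike-ins or totals, count minimum and each replicate left out. The restriction to full-length coding transcripts was chosen after seeing the data. The genes and lists were chosen with earlier results of these data known. All 10 clock genes, all listed pathway and suprachiasmatic nucleus genes and all 16 pairs were to be named, except that some pathway genes are counted but not reported here by name, and of other marker lists the highest member and those called apart.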

Additional observations from a re-analysis of the deposited data

How the results depend on the processing

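The count of clock genes called apart was 0 under the main setting and under all 8 alternatives, which were other scalings, count minimums, posterior mean counts and 1.5-fold; with a minimum of 200 counts 8 of the 10 were compared. Over all genes it was 191 of 13929, or 1.37%. It became 536 of 13929 with spike-in scaling and 918 of 13929, or 6.59%, at 1.5-fold. With a minimum of 20, 200 or no counts it was 471 of 15685, 38 of 11353 or 1098 of 43346. At shares this small, 0 of 10 does not set the clock genes apart from other genes. Spike-in scaling shifted ratios by -0.55 on the log2 scale and the clock gene median to -0.55, so each ratio between the pools is relative to the scaling. All 10 clock genes were at 1 TPM or more, against 60.7% of protein-coding genes. At a minimum of 5 TPM 5 were, near the 49.0% of protein-coding genes that were, and at 10 TPM 4 were. With FPKM at a minimum of 1, 9 were, without Npas2. In either replicate alone the clock gene count was 10 and the pathway count 26.

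The order of the 10 levels was the same over Ensembl genes only, over full-length coding transcripts and in replicate 1 alone. Over full-length coding transcripts, however, the deposited bounds of Per3 and Npas2 overlapped in both libraries. Clock and Per2 changed places with posterior mean TPM and in replicate 2 alone. Restricting to full-length coding transcripts lowered Dbp to 1.44 TPM and Per3 to 1.27 TPM. Posterior means raised Per2 to 5.79 TPM and Npas2 to 1.54 TPM. No pair ratio that exceeded 3 SD changed sign. Leaving out a replicate gives no value for a ratio between the pools. No paired analysis was possible because there is 1 group.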

Other observations

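Genes induced by neuronal activity or cAMP, a class to which Per1 also belongs in adult brain, were low. Junb was highest at 6.56 ± 0.410 TPM. The others are named after their values were seen. Arc had 4.18 and 3.67 TPM in replicates 1 and 2, Nr4a1 had 3.50 and 3.69 TPM, Egr1 had 2.91 and 2.99 TPM and Fos had 1.59 and 2.02 TPM. Fosb had 2 and 5 counts. Per1, at 9.44 and 10.1 TPM, was above each of these 6 genes in both libraries at the gene level. Its full-length coding transcripts, at 6.86 and 6.75 TPM, were below the 6.85 TPM of Junb in replicate 2. Of the 5 with at least 50 mean counts, 0 were called apart, against 1.37% of all genes compared.

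Red blood cell, endothelial and microglial genes were all lower in replicate 1 than in replicate 2 relative to other genes, with list medians of -0.34, -0.28 and -0.29 on the log2 scale. No member of these lists passed the 2-fold rule, where 1.37% of all genes compared did. The highest members were Hba-a2 at 5249 ± 902 TPM, Cldn5 at 82.6 ± 9.87 TPM and C1qb at 23.6 ± 4.98 TPM.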
